A study of Mus musculus with 7 samples.

Results

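Intergenic sites that HA-tagged GATA2 occupied alone, and that hold a GATA motif, are described here. They are 598 of the 6254 GATA2 peaks (9.56%) from CUT&Tag, in which antibody-guided transposase inserts sequencing adapters near a bound protein. They were selected on 4 criteria: a peak in the GATA2 list, no overlap of 1 bp or more with a peak of the 9aa-Ins list, a summit outside protein-coding genes and their promoters, and the motif WGATAR (W is A or T, R is A or G) within 100 bp of the summit. Of all GATA2 peaks, 84.7% had no 9aa-Ins peak. A promoter ran from 2 kb upstream to 100 bp downstream of a protein-coding transcript start in the basic set of GENCODE M21. With the starts of the full set 592 peaks would remain, since a few, such as those 0.111 kb upstream of the Pde4d gene start, 1.88 kb upstream of Ly6g6d and 1.93 kb upstream of Cers2, lie close to a start that the basic set does not hold. Both lists come from hi-77-/- cells, mouse fetal liver progenitors immortalized with Hoxb8 that lack the -77 enhancer of Gata2 on both alleles and keep a low level of endogenous GATA2. These cells were infected with a retrovirus expressing GFP and either HA-GATA2 or HA-9aa-Ins, a GATA2 whose zinc fingers are spaced apart by 9 extra amino acids, cultured for 3 days and sorted for GFP. The antibody was against HA, so endogenous GATA2 was not the target. Sorted cells of a condition were pooled and then split into 2 replicates, which the deposited list merges, so no value has a replicate error. The sources differ on whether reads or peaks were merged, and a pileup is read here as reads of both replicates together, since each list carries a single background. Another 3 libraries, prepared with an antibody to GATA2 itself, were not used here.

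GATA2 is a zinc finger transcription factor required for hematopoietic stem and progenitor cells, and its C-terminal finger binds WGATAR. In hematopoietic cells GATA factors act largely from distal enhancers, where WGATAR often lies beside an E-box (CANNTG), the site of TAL1 and other basic helix-loop-helix factors. TAL1 is joined to GATA factors in a complex with LMO2 and LDB1, and RUNX and ETS factors occupy many of the same enhancers in progenitors.

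The sequences at the summits of the 10 highest peaks show where WGATAR lies at the strongest sites. Each is the plus strand of GRCm38 (mm10), 5′ to 3′, with WGATAR in capitals (copies on the minus strand appear in reverse complement, such as CTATCT), and is named for the nearest protein-coding gene start. A run reaches 50 bases to each side of the summit, or 100 bases where WGATAR lies farther out.
Lrrc6 peak, chr15:66507905-66508105: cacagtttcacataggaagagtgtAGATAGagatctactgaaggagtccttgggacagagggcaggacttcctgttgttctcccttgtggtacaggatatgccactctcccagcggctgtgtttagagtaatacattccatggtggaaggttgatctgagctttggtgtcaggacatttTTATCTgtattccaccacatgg
Hbs1l peak, chr10:21228700-21228800: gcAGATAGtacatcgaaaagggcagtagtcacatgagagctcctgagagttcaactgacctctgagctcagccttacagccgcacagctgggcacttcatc
Smg9 peak, chr7:24394643-24394743: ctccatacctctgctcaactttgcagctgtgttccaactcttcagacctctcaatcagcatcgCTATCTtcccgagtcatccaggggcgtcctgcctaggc
Pdzk1ip1 peak, chr4:115095789-115095989: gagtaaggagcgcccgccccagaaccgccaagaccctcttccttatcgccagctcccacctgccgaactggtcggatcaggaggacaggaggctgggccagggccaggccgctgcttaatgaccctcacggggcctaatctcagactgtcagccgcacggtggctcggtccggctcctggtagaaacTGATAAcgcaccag
Glg1 peak, chr8:111262147-111262247: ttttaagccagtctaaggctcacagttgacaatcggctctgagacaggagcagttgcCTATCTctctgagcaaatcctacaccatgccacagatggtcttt
Asic1 peak, chr15:99664726-99664926: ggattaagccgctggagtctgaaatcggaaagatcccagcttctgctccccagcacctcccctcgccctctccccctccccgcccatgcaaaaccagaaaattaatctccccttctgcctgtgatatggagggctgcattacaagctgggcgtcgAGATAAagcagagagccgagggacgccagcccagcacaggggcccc
Gtf3c5 peak, chr2:28598282-28598382: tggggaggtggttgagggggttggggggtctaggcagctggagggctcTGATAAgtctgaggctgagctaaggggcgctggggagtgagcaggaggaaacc
Dirc2 peak, chr16:35677611-35677811: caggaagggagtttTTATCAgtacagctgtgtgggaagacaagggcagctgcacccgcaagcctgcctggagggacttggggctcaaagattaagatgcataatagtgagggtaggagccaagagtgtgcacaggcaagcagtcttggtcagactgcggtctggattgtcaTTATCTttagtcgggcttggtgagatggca
Dyrk3 peak, chr1:131126340-131126440: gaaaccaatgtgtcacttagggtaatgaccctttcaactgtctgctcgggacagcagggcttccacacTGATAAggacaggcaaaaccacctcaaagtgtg
Cd180 peak, chr13:102665862-102665962: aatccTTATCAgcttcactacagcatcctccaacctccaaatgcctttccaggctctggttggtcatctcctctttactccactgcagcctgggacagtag

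The Lrrc6 peak was the highest of the 598, with 97 reads at the summit (pileup, 95% Poisson interval 78.7 to 118) and 2 WGATAR. Its sequence contains 1 AGATAA, read on the minus strand near the right end, with the E-box CATGTG before it. Close behind were the Hbs1l peak with 93 reads (75.1 to 114) and the Smg9 peak with 92 reads (74.2 to 113). The Hbs1l peak had its only WGATAR 45.5 bp from the summit. In the Gtf3c5 peak, by contrast, TGATAA was centred 0.5 bp from the summit. The Pdzk1ip1 and Dirc2 peaks had their nearest WGATAR 89.5 and 73.5 bp away, close to the limit of 100 bp. Across the 10 highest peaks, WGATAR was thus present by rule but not at one fixed place.

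Sites near genes that GATA2 activates, and a site near Gata2 itself, are shown next, with the position of WGATAR in capitals as above. The first 3 are the peaks nearest to Csf2rb, Il1rl1 and S1pr1, the genes of a list of 9 activated genes from the text of the study with a peak within 100 kb, a distance at which 6.84% of all protein-coding genes had one. The Kit and Gata2 peaks were chosen after their values were seen.
Csf2rb peak, chr15:78318977-78319077: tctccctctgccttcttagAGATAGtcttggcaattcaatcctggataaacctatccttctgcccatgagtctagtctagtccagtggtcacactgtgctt
Il1rl1 peak, chr1:40501534-40501734: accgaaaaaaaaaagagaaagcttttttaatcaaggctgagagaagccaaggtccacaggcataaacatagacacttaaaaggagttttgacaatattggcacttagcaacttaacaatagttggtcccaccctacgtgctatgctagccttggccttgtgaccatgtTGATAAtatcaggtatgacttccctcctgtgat
S1pr1 peak, chr3:115641618-115641718: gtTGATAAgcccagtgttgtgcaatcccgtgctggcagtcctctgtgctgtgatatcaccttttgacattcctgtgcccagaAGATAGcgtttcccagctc
Kit peak, chr5:75460635-75460735: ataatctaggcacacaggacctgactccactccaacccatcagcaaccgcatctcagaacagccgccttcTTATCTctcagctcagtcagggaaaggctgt
Gata2 peak, chr6:88189716-88189816: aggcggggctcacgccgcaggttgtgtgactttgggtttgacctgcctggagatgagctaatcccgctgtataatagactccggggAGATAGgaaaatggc

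The Csf2rb peak lay 6.73 kb upstream of the start of Csf2rb, which encodes the common β subunit of the IL-3, IL-5 and GM-CSF receptors, and had 14 reads. A higher peak of 35 reads lay 57.8 kb upstream. The Il1rl1 peak, with 19 reads, lay 72.1 kb downstream of the start of Il1rl1, the IL-33 receptor gene, and was nearest to Il18rap. The S1pr1 peak, 73.4 kb from the start of this sphingosine 1-phosphate receptor gene, had 12 reads and 2 WGATAR. Kit, the stem cell factor receptor gene, had a peak of 26 reads 114.2 kb upstream, outside the limit of 100 kb. The Gata2 peak lay 4.13 kb upstream of the Gata2 start with 13 reads, and 2 further peaks lay 86.9 and 86.0 kb upstream with 29 and 10 reads. All of these were lower than the 10 highest peaks.

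The rule fixed part of what the lists show. Of the 625 intergenic GATA2 peaks with WGATAR, 598 (95.7%) had no 9aa-Ins peak, beside 84.7% of all GATA2 peaks. The remaining 27 were shared with 9aa-Ins. In these 27 the median pileup was 30 reads with GATA2 and 15 reads with 9aa-Ins (10 to 77 reads), and the GATA2 pileup was the higher one at 20. Of the 598 peaks, 54 exceeded the median of the shared peaks. The 598 peaks are 53.4% of 1119 intergenic GATA2-only peaks, and the other 521 had no WGATAR in the window. These values follow from the choice of peaks and were not tested.

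At the edges of the rule, peaks inside and outside resembled each other in height. The smallest gap to a 9aa-Ins peak was 248 bp, at a peak of 11 reads near Nol4l, and 4 peaks had a gap of up to 1 kb. The smallest overlap in a shared peak was 8 bp, at a peak of 10 reads. The nearest WGATAR was in the outer 10 bp of the window in 35 peaks (9 to 69 reads, median 14), and up to 10 bp outside it in 21 intergenic GATA2-only peaks (10 to 36 reads, median 16). At 2 to 2.2 kb from a transcript start lay 3 peaks of 11 to 23 reads. Just inside the promoter limit, 1.8 to 2 kb from every start, lay 5 GATA2-only peaks with WGATAR of 15 to 46 reads.

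Height differed with the motif and not detectably with location. The 598 peaks had a median of 16 reads at the summit (quartiles 13 and 21, range 9 to 97) and a median width of 338 bp (168 to 1253 bp). Intergenic GATA2-only peaks without WGATAR had a median of 14 reads (quartiles 12 and 17, highest 66), and intronic GATA2-only peaks with WGATAR had a median of 15 reads (quartiles 13 and 21, highest 98). Of the 598 peaks, 160 (26.8%, 95% Wilson interval 23.4 to 30.4) passed the upper quartile of fold enrichment in the GATA2 list, against 65 of 521 peaks without WGATAR (12.5%, 9.91 to 15.6; Fisher's exact test, two-sided, adjusted p = 7.7e-09 over 3 comparisons). Many values are tied, and 22.1% of all GATA2 peaks passed this limit. Intronic peaks with WGATAR had a share of 25.9%, and the difference of 0.858 points had an interval of -3.80 to 5.58 (exact test, adjusted p = 0.758). Peaks are not replicates, and these intervals and tests cover counting error only, since the replicates were split from a pool of cells and merged. The authors removed duplicates, but without molecular identifiers reads are not certain to be independent molecules. Of the 598 peaks, 230 (38.5%) had at least 18 reads, 2 times the lowest pileup of any 9aa-Ins peak (9 reads), and 87 (14.55%) had at least 27. The part of detection depth in the absence of a 9aa-Ins peak was not tested.

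**Figure D1:**
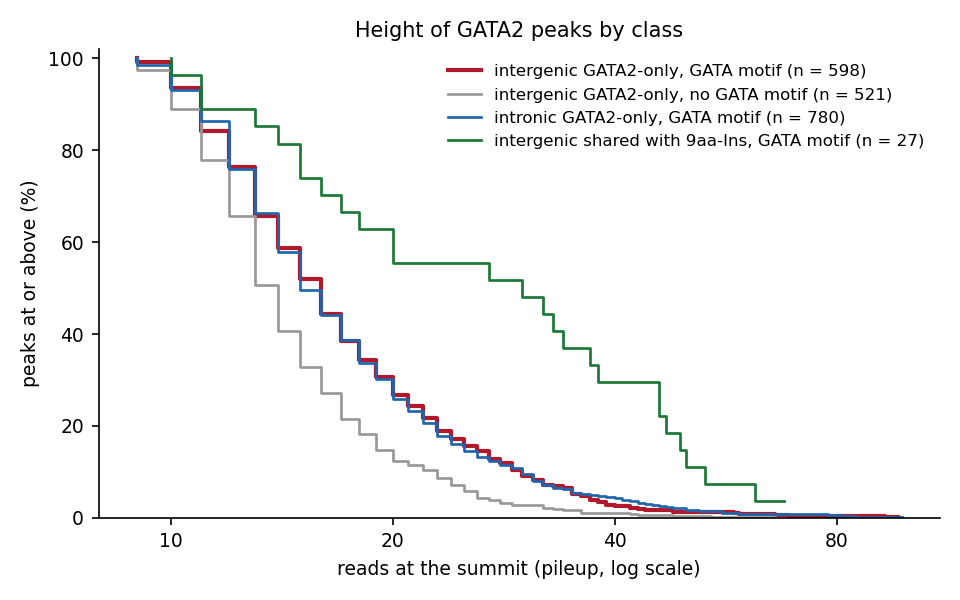
Share of peaks (y axis, percent) with at least the number of reads at the summit on the x axis (log scale), for 4 classes of GATA2 peaks. The curve of the 598 intergenic GATA2-only peaks with a GATA motif runs with that of intronic peaks with the motif (medians 16 and 15 reads), above peaks without the motif (median 14) and below shared peaks (median 30).

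Most of the 598 peaks lay more than 10 kb from the nearest protein-coding transcript start. The median distance was 27.6 kb (quartiles 11.02 and 73.04 kb). Within 10 kb lay 139 peaks (23.2%), from 10 to 50 kb 253 (42.3%), from 50 to 100 kb 106 (17.7%) and beyond 100 kb 100 (16.7%). Peaks without WGATAR were within 10 kb in 26.1% and beyond 100 kb in 15.7%, differences of -2.86 points (interval -7.94 to 2.19) and 0.983 points (-3.39 to 5.29) that did not pass the test (Fisher's exact test, adjusted p = 0.593 and 0.685). From 10 to 50 kb lay 45.9% of the peaks without WGATAR and from 50 to 100 kb 12.3%. Their median distance was 22.7 kb (upper quartile 55.0 kb), and these other values were not tested. The nearest gene start had the peak on its upstream side in 404 of 598 (67.6%) and in 63.3% of peaks without WGATAR. The rule itself favours this side, since it leaves out summits inside protein-coding genes. Inside an annotated non-coding gene lay 106 peaks (17.7%). Chromosome 2 held the most peaks (59), followed by chromosome 11 (46), and chromosome X held 3. The nearest 9aa-Ins summit was a median of 549 kb away, and 121 peaks (20.2%) had a 9aa-Ins peak within 100 kb.

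WGATAR was frequently repeated in a window. Of the 598 peaks, 360 had 1 WGATAR, 179 had 2 and 59 had 3 or more, up to 5. At least 2 occurred in 238 peaks (39.8%, 36.0 to 43.8). For comparison, windows of the same length were taken 2 kb to each side of all intergenic GATA2-only summits; 669 of these 2167 flanking windows (30.9%) held WGATAR, 154 of them (23.0%, 19.99 to 26.4) at least 2 times. This difference passed the test (Fisher's exact test, adjusted p = 2.7e-10). In the 27 shared peaks the share was 33.3%, and the difference of 6.47 points had an interval of -12.8 to 21.7 (exact test, adjusted p = 0.552). A pair of WGATAR separated by 0 to 5 bases occurred in 19 of the 238 windows (7.98%) and in 28 of the 154 flanking windows (18.2%). Such a pair read on the same strand in 11 of the 19 and 22 of the 28 windows. In windows with no soft-masked base, meaning a base that the genome sequence marks as repeat, pairs this close occurred in 6 of 120 (5%) and 3 of 34 (8.82%), and neither comparison was tested. Median pileup was 15 reads with 1 WGATAR, 17 with 2 and 18 with 3 or more. The share of high peaks was 30.7% with 2 or more and 24.2% with 1, which did not pass (exact test, adjusted p = 0.134), whereas the share above the list median was 60.9% and 46.1% (adjusted p = 6.6e-04).

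The nearest WGATAR of a window lay closer to the summit than to the centre of flanking windows, by an amount that varied with the limit. WGATAR matches as a whole were hardly more frequent within 20 bp of the centre, but less frequent at the window edges. Within 20 bp of the centre lay 191 of 906 matches at the peaks (21.1%, 18.6 to 23.9) and 203 of 1015 in flanks (20%, 17.7 to 22.6), a description added after the other values were seen. The outermost bins of 20 bp held 7.51% and 8.94% of matches at the peaks, and 11.2% and 10.05% in flanks. From -40 to -20 bp the share was also lower at the peaks (7.06% and 9.46%), and these bins were not tested. The windows at the peaks also held more copies, as above, from which the nearest was taken, and the part of copy number in the distances below was not tested. Its nearest copy was a median of 38.5 bp from the summit (quartiles 16.5 and 62.3 bp), and a median of 46.5 bp from the centre of flanking windows with the motif. It was within 25 bp in 215 of 598 peaks (36.0%, 32.2 to 39.9) and in 198 of 669 flanking windows (29.6%, 26.3 to 33.2; Fisher's exact test, p = 0.0164). Within 50 bp the shares were 63.4% and 52.5% (exact test, p = 1.1e-04), and within 10 bp they were 14.7% and 13.6% (p = 0.573 in the same exact test). With peaks over 5 kb from any start, the difference within 25 bp fell to 5.25 points (exact test, p = 0.0614).

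**Figure D2:**
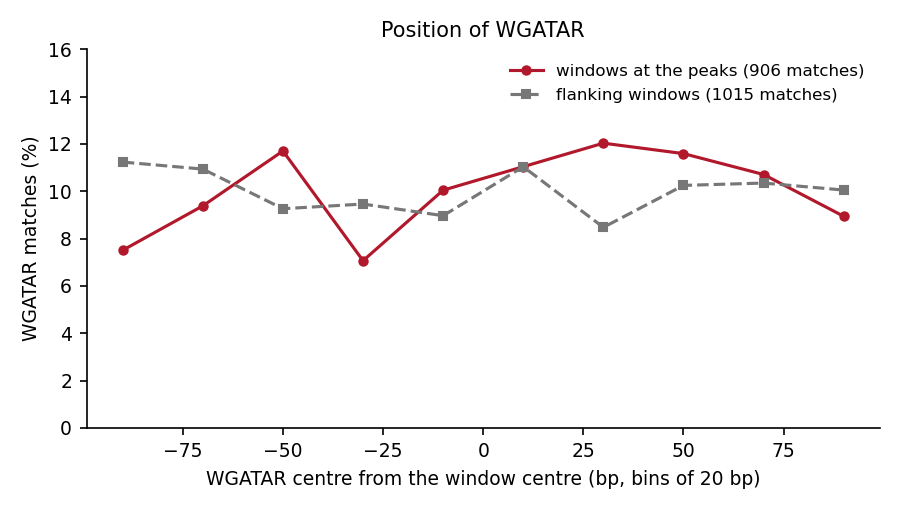
Share of WGATAR matches (y axis, percent) in bins of 20 bp by the distance of the match centre from the window centre (x axis, bp), for 906 matches at the 598 peaks and 1015 in flanking windows. At the peaks the bins run from 7.06%, from -40 to -20 bp, to 12.03%, from 20 to 40 bp on the other side of the summit, and the outermost bins hold 7.51% and 8.94%. In flanking windows the bins run from 8.47% to 11.2%, and the outermost bins hold 11.2% and 10.05%.

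The 4 forms of the motif were used unequally. AGATAA made up 383 of 906 matches (42.3%, 39.1 to 45.5) and 283 of 1015 flanking matches (27.9%, 25.2 to 30.7; Fisher's exact test over matches, adjusted p = 8.5e-11 over 4 forms). AGATAG was less frequent than in flanks (21.3% and 38.3%, exact test, adjusted p = 1.5e-15), TGATAA more frequent (24.1% and 19.1%, adjusted p = 0.0118), and TGATAG did not pass (12.4% and 14.7%, adjusted p = 0.143). Soft-masked bases took 9.61% of the bases at the peaks and 29.3% in flanks. In windows with no such base AGATAA still passed (41.1% and 29.95%, exact test, adjusted p = 0.0233), while AGATAG (22.5% and 28.0%) and TGATAA (23.8% and 25.1%) did not. At a q-value of 1e-10 TGATAA did not pass either (24.7% and 21.3%, exact test, adjusted p = 0.154). The base after WGATAR was G in 41.1% of matches at the peaks and 18.9% in flanks, and the base before it was C or G in 35.1% and 31.3% at the peaks and in 21.8% and 21.5% in flanks. In windows with no soft-masked base, G followed in 40.3% and 23.2%, while C came before in 35.5% (31.3 to 39.96) and 30.4% (24.6 to 37.0) and G in 31.4% (27.3 to 35.8) and 22.2% (17.1 to 28.4). These flanking bases were looked at after the other values were seen and were not tested.

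An E-box before WGATAR, the arrangement of GATA and TAL1 composite sites, was about 2 times as frequent at the peaks as in flanks. It was searched 6 to 14 bases upstream on the strand that reads WGATAR, and was found at 83 of 906 matches (9.16%, 7.45 to 11.2) and at 45 of 1015 flanking matches (4.43%, 3.330 to 5.88; Fisher's exact test, p = 3.4e-05). In windows with no soft-masked base the shares were 9.74% and 4.83% (exact test, p = 0.0333). Spacers of 8 and 9 bases were the most frequent, with 2.21% and 1.55% of matches at the peaks and 0.493% and 0.394% in flanks. With the E-box 6 to 14 bases after WGATAR instead, the shares were 4.97% and 3.45%. At wider spacers of 15 to 30 bases, E-boxes before WGATAR were also more frequent at the peaks, at 10.04% of matches (8.25 to 12.2) and 6.11% in flanks (4.79 to 7.75), so the excess was not limited to the composite spacing, and after WGATAR the shares at these spacers were 7.95% and 7.09%. These other spacers were not tested. Altogether 81 of the 598 peaks (13.5%) held such a composite, including 6 of the 20 highest. The median pileup was 17 reads with a composite and 16 without, and 34.6% (25.1 to 45.4) and 25.5% (21.96 to 29.5) were high peaks. Aligned here are the composites of the 6 highest peaks with a spacer of 8 or 9 bases. They are on the strand that reads WGATAR, with both motifs in capitals. The Dus3l peak, among the 20 highest, has a composite with another spacer, and the Hs6st1 peak has rank 21.
Lrrc6 composite, chr15:66508084-66508104, - strand: CATGTGgtggaatacAGATAA
Hbs1l composite, chr10:21228687-21228707, + strand: CAGATGcgctcttgcAGATAG
Glg1 composite, chr8:111262236-111262255, + strand: CAGATGgtctttagTGATAG
Gtf3c5 composite, chr2:28598316-28598335, + strand: CAGCTGgagggctcTGATAA
Rpp25 composite, chr9:57505985-57506005, + strand: CAGCTGtgtgtggagAGATAA
Hs6st1 composite, chr1:36130549-36130568, + strand: CAGTTGcagagataAGATAA

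The E-box letters varied among these composites and WGATAR took all 4 forms. Of 84 E-boxes in composites, CAGATG or its reverse CATCTG made up 22 (26.2%), CAGCTG 14 (16.7%) and CACATG or CATGTG 12 (14.3%). AGATAA was the GATA motif in 42 (50%). The Runx1 peak, 57.8 kb upstream of Runx1, also carried a composite with a spacer of 9 bases and had 30 reads.

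**Figure D3:**
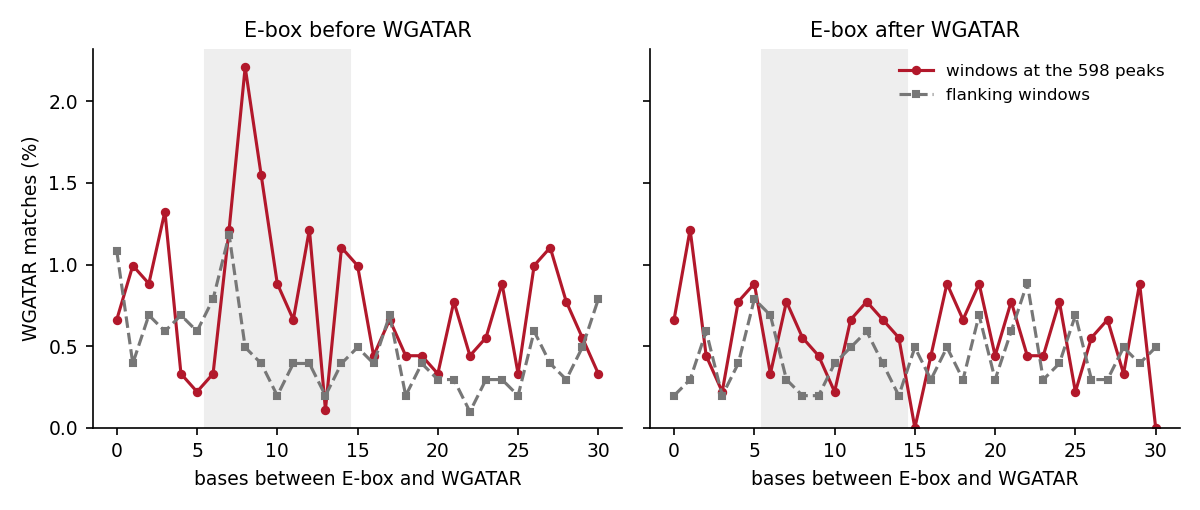
Share of WGATAR matches (y axis, percent) with an E-box at each spacer of 0 to 30 bases (x axis), before (left) or after (right) WGATAR on its own strand. Points are windows at the 598 peaks and squares are flanking windows. The band marks the tested spacers of 6 to 14 bases. The highest value, 2.21%, is at 8 bases before WGATAR at the peaks.

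Motifs of other hematopoietic factors were then looked for, on either strand, up to 100 bp from the summit. The letters were CANNTG for the E-box, GGAAG for ETS, TGTGGT for RUNX, TGANTCA for AP-1, TTGCNNAA for C/EBP, TGATTNAT for HOX with PBX, TGACAG for MEIS, CACCC for KLF and CCCNNGGG for EBF, beside the CTCF motif. The E-box can overlap TGATAA through TG. RUNX letters, those of the family of RUNX1, were more frequent than in flanks and in peaks without WGATAR, and were not detectably different from intronic peaks with WGATAR. The letters TGTGGT were present in 176 of 598 peaks (29.4%, 25.9 to 33.2), in 14.8% of the 1167 windows 2 kb to the side of the same peaks, in 21.3% of intergenic GATA2-only peaks without WGATAR and in 16.2% of all GATA2 peaks. The first difference passed (adjusted p = 4.9e-12 over 10 motifs), as did the second (adjusted p = 0.00669; Fisher's exact tests). In windows with no soft-masked base the shares were 30.7% at the peaks and 8.70% beside them (exact test, adjusted p = 3.0e-07). Intronic GATA2-only peaks with WGATAR held the RUNX letters in 31.03% (27.9 to 34.4), and the difference of -1.59 points had an interval of -6.44 to 3.32 (exact test, adjusted p = 0.696). The same letters read backwards, TGGTGT, occurred in 14.05% and 12.7%.

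The other motifs depended more on the windows compared. Against their own flanks, 6 of 10 motifs were more frequent at the peaks. Besides RUNX these were ETS (65.9% and 47.0%), KLF (45.2% and 32.5%), MEIS (22.9% and 13.4%), AP-1 (12.5% and 6.08%) and EBF (7.53% and 4.71%, exact test, adjusted p = 0.0364). None of these 5 passed in windows with no soft-masked base, which are far fewer, but their differences did not all shrink. KLF stayed at 48.5% and 37.3% (exact test, adjusted p = 0.120) and EBF was at 10.2% and 4.97% (adjusted p = 0.182), whereas ETS had 62.7% and 55.3% (adjusted p = 0.338), AP-1 13.5% and 9.32% (adjusted p = 0.462) and MEIS 22.4% and 22.4%. EBF also did not pass at a q-value of 1e-10 or outside all annotated genes (exact tests, adjusted p = 0.0566 and 0.120). The same held over 5 kb from any start and with starts of the full annotation (exact tests, adjusted p = 0.0604 and 0.0610). GC content was 49.7% ± 5.68 (SD over 598 windows) at the peaks and 45.1% ± 7.25 (SD over 1167 windows) beside them, and letters read backwards were also more frequent at the peaks for ETS (51.0% and 42.2%) and KLF (47.8% and 36.2%). The part of base composition and repeats was not tested. C/EBP letters occurred in 8.03% and 10.5%, CTCF in 5.52% and 4.11%, and E-boxes in 70.7% and 67.0%, and none of these passed.

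Between GATA2-only peak classes, 3 motifs differed. E-boxes were present in 70.7% of the 598 peaks and 60.5% of peaks without WGATAR (exact test, adjusted p = 0.00314; with WGATAR blanked 69.6% and 60.5%, adjusted p = 0.0125), and HOX-PBX in 3.85% and 0.960% (adjusted p = 0.00669), beside RUNX as above. The HOX-PBX difference rested on 23 and 5 peaks and did not pass in windows with no soft-masked base (3.96% and 0.833%, exact test, adjusted p = 0.0914). Nor did it pass with peaks outside all annotated genes (3.46% and 1.22%, exact test, adjusted p = 0.104). ETS was close in both classes (65.9% and 65.3%), and KLF was at 45.2% and 51.8% (exact test, adjusted p = 0.0666). GC content was 53.9% ± 7.90 (SD over 521 windows) in peaks without WGATAR. Against intronic GATA2-only peaks with WGATAR, 0 of 10 motifs passed Fisher's exact test, 0 had an unadjusted p below 0.05, and the differences ran from -2.09 to 2.92 points.

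**Figure D4:**
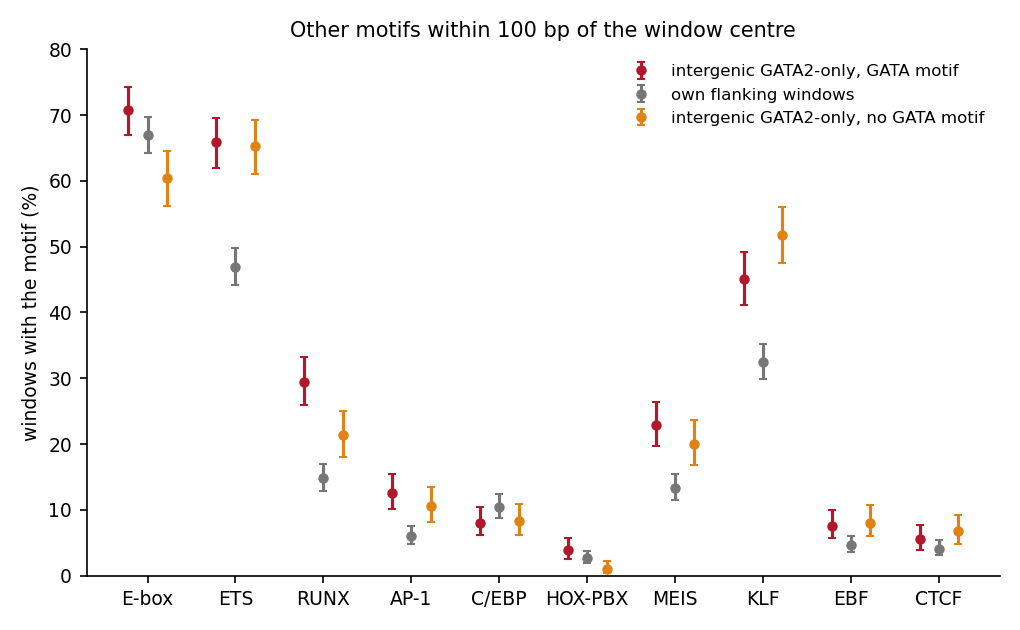
Share of windows with each motif within 100 bp of the centre (y axis, percent) for the 598 peaks, for windows 2 kb to their sides and for intergenic GATA2-only peaks without WGATAR. Bars are 95% Wilson intervals. RUNX at the peaks (29.4%) is above both comparisons drawn (14.8% and 21.3%), though not above intronic peaks with WGATAR (31.03%, not drawn), whereas ETS is above the flanks only (65.9%, 47.0% and 65.3%).

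The highest peaks lay near genes of varied function and included regions between well-known hematopoietic genes. The 20 highest had 39 to 97 reads, 11 of them had 2 or more WGATAR, 9 lay within 10 kb of the nearest gene start, and 1, near Etnk1, had a 9aa-Ins summit within 10 kb (2.65 kb away). The Hbs1l peak was 67.8 kb upstream of the start of Myb, a progenitor transcription factor whose enhancers are known to lie between Myb and Hbs1l. The Pdzk1ip1 peak, with 69 reads, was 39.5 kb downstream of the start of Tal1, the E-box binding partner of GATA factors. The Gtf3c5 peak, with 58 reads, was 23.7 kb downstream of the start of Gfi1b, a repressor needed in erythroid and megakaryocytic cells. A peak of 42 reads with 3 WGATAR lay 78.3 kb upstream of Tet2, a DNA demethylating enzyme often mutated in myeloid neoplasms. The other nearest genes were Glg1 (66 reads), Asic1 (59), Dirc2 (57), Dyrk3 and Cd180 (48 each), Dus3l and Tbc1d14 (44 each), Etnk1 (43), Cdk17 (42), Rpp25 (41), Tbc1d7 (40), and 6030408B16Rik, Zfp608 and Pth (39 each).

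Some of these peaks formed groups. Another of the 598 peaks lay within 10 kb of 80 peaks (13.4%) and within 50 kb of 140 (23.4%), and 13 runs of 3 or more had gaps of at most 50 kb. The 3 longest runs had 4 peaks each. Between Myb and Hbs1l, 4 peaks spanned 41.9 kb (chr10:21186848-21228750 from first to last summit) with 12, 16, 13 and 93 reads, so that a single site dominated. Upstream of Gtf3c5 and downstream of Gfi1b, 4 peaks spanned 6.11 kb (chr2:28596207-28602319) with 12, 58, 32 and 23 reads. Near Dad1, 4 peaks spanned 51.0 kb (chr14:54176674-54227624) with 23, 18, 19 and 34 reads. Of these, 3 lay among the joining segments of the T cell receptor α locus, which the annotation does not class as protein-coding genes, and the highest lay 3.42 kb past the end of its constant gene Trac. The next runs by summed pileup were 3 peaks of 23 to 32 reads 173 to 191 kb downstream of the start of Ikzf2, which encodes Helios, and 3 peaks of 10 to 36 reads 148 to 174 kb downstream of the start of Kdr, the VEGF receptor gene.

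The share of genes with such a peak ran from 0 to 45.5% over lists of hematopoietic and other genes. Of 21938 protein-coding genes, 1501 (6.84%) had one of the 598 peaks within 100 kb of the start. Among 22 mast cell and basophil genes, 10 had one (45.5%, interval 26.9 to 65.3). They included Slc18a2, a vesicular monoamine transporter (11.99 kb upstream, 19 reads, with a composite), the protease genes Cpa3 (27.2 kb, 11 reads), Cma1 (21.8 kb, 12 reads), Prss34 (4.50 kb upstream, 14 reads), Tpsb2 and Tpsab1, and Ms4a2, the β chain of the high-affinity IgE receptor (11.3 kb, 10 reads with 4 WGATAR). Csf2rb, Il1rl1 and Gata2 are also in this list. Tpsb2, Tpsab1 and Prss34 shared the same 2 peaks of 14 and 10 reads, so that the genes are not independent. The nearest peak of these genes had at most 19 reads, beside a median of 16 over the 598 peaks.

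Of 24 progenitor factor genes, 9 had a peak within 100 kb (37.5%, 21.2 to 57.3). Runx1 and Ikzf1, the gene of Ikaros, each had a nearest peak of 30 reads, 57.8 and 27.6 kb upstream. Lmo2, the bridging subunit of the TAL1 complex, had peaks of 14 and 36 reads 12.1 and 64.0 kb upstream. Hhex had peaks of 17 reads with 4 WGATAR and of 15 reads with 3. Fli1, an ETS factor, had a single peak of 14 reads 13.6 kb upstream. Tal1, Gfi1b, Myb and Gata2 completed the list, and all of them are described above.

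In the remaining lineage and factor lists the share ran from 0 to 20%, and differences between lists were not tested. Of 20 erythroid and megakaryocytic genes 4 had a peak (20%, 8.07 to 41.6), among them Tal1, Gfi1b and Hbb-bs, an adult β-globin gene (18.97 kb, 12 reads). Of 15 ETS factor genes 2 had one (13.3%, 3.74 to 37.9), Fli1 and Elk4, the second with 3 peaks of 11 to 25 reads 14.7 to 64.7 kb upstream. One list gene each was found among 16 neutrophil and monocyte genes (6.25%; Mpo, myeloperoxidase, 39.5 kb upstream, 14 reads), 17 B lymphoid genes (5.88%; Foxo1) and 14 T and NK genes (7.14%; Tcf7, 22.5 kb upstream, 12 reads). With so few genes these shares moved easily, to 12.5% of neutrophil and monocyte genes at a q-value of 1e-08 or 1e-10 or with a reciprocal overlap of 50%, and to 0 of B lymphoid genes at 1e-10, outside all annotated genes or within 50 kb. The counts were 0 of 12 hepatocyte genes and 0 of 14 neuronal genes, with upper interval bounds of 24.2% and 21.5%.

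A selection of the genes that the study names as activated or repressed by GATA2 was counted in the same way. Among 9 activated genes, 3 were within reach of one (33.3%, 12.1 to 64.6), as described above, and of 22 repressed genes 0 did (upper bound 14.9%). Ifi209, Nlrp1a and Trem1, which the study also names as repressed, were not in that list and had no peak within 100 kb either (0 of 25 with them, upper bound 13.3%). The repressed gene with the nearest of the 598 peaks was Mef2c, at 159 kb, with 11 reads. Peaks in promoters or genes, shared with 9aa-Ins or without WGATAR were not counted. The study reports GATA2 occupancy at the Ebf1 promoter and near Il6ra and Il6st. Of genes regulated by both proteins in the study's tables, 16 of 126 activated (12.7%, 7.97 to 19.6) and 21 of 290 repressed genes (7.24%, 4.78 to 10.8) had one of the 598 peaks within 100 kb. These are the genes whose symbols matched the annotation, of 144 and 381 in the tables, and the 16 include Gata2, which the retrovirus itself expresses. The study chose these lists on RNA from the same cell system, and its text presents many of the named genes, among them Csf2rb, Far2, Gata1, Hdc, Kit, Il6ra, Il6st and Tifab, also for the presence or absence of CUT&Tag signal, so the named genes were picked in part on these same peaks and are not independent of them. None of the list shares was tested.

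The list shares changed with the distance allowed. Within 50 kb, where 3.51% of all genes had a peak, the share was 36.4% of mast cell and basophil genes, 29.2% of progenitor factors and 20% of erythroid and megakaryocytic genes, but 11.1% of the activated genes, with Csf2rb as the single gene left. Of genes regulated by both proteins, 7.94% of activated and 3.10% of repressed ones had a peak at this distance. Within 10 kb, where the share of all genes was 0.716%, it was 13.6% of mast cell and basophil genes, 4.17% of progenitor factors, 11.1% of activated genes and 0 of erythroid and megakaryocytic genes.

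**Figure D5:**
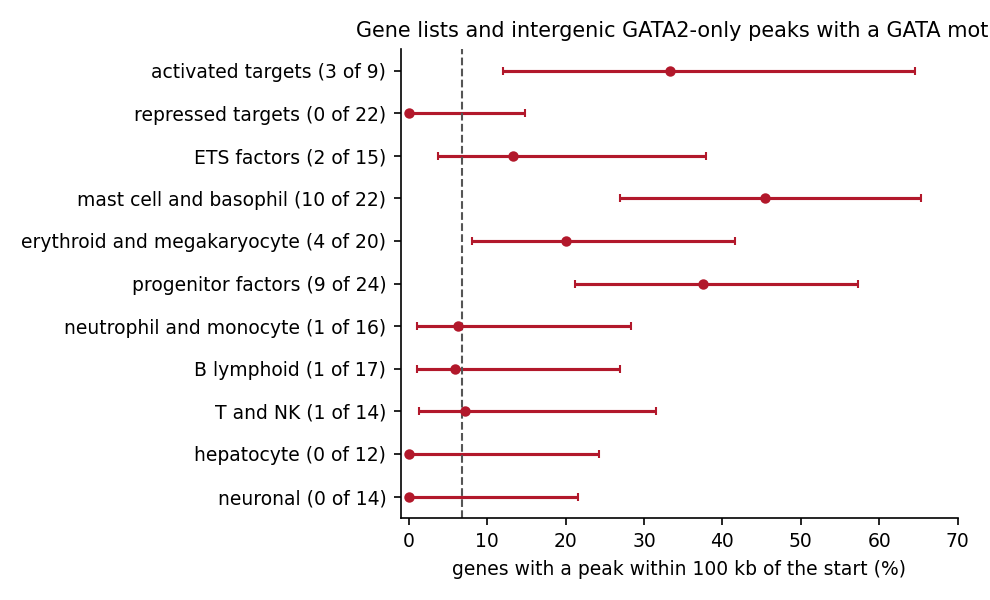
Share of genes of each list (x axis, percent) with at least 1 of the 598 peaks within 100 kb of the gene start. Points are shares, bars are 95% Wilson intervals, and the dashed line is the share of all protein-coding genes (6.84%). Mast cell and basophil genes (45.5%) and progenitor factors (37.5%) lie to the right of the line with their whole intervals. So do activated targets (33.3%) and erythroid and megakaryocytic genes (20%). Genes activated by both proteins (12.7%, 7.97 to 19.6) are not drawn. Some genes share a peak or stand in several lists, so they are not independent, and none of the shares was tested.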

How the data were processed

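CUT&Tag reads were aligned by the authors to mm10 with Bowtie2, duplicates and blacklisted reads were removed, and peaks were called with MACS3 at a q-value of 1e-06; versions are not given in the sources used here. The deposited files are 2 peak lists, 1 for each construct, each merging 2 anti-HA replicates. The methods speak of merged peaks and the labels of merged replicates; a single call on merged reads was assumed, on which pileups and their Poisson intervals rest. In the deposited lists the score is the −log10 q-value times 10, truncated, and the fold enrichment is a ratio of pileup to background. The −log10 q-value used is the authors' own, and the deposited p-values were not used. The deposited summit offset gave the summit. Whole pileups were recovered from fold enrichment (largest deviation 6.2e-04 reads), with a background of 0.464 reads for GATA2 and 0.455 for 9aa-Ins. Read totals per library were not used here.

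Peaks were placed with GENCODE M21 (basic set) on GRCm38, and sequence was read from the RefSeq copy of that assembly. Motifs were searched within 100 bp of the summit and in windows 2 kb to each side that touch no peak. Shares were compared with Fisher's exact test (two-sided, SciPy 1.17.1, Python 3.11.15, Benjamini-Hochberg within each family) and have 95% Wilson intervals. Differences of shares have Newcombe intervals. Matches in 1 window, and windows beside 1 peak, are not independent. The motif search was tested on simulated data. The peaks, lists and tests were chosen with earlier results of these data known. Genes named are those nearest to the 20 highest peaks, list genes with a peak within 100 kb, and genes nearest to the 5 largest runs. Sequences reach 50 bases to each side of the summit, or 100 where these hold no WGATAR. All 13 gene lists were matched by symbol, and unmatched symbols were left out. The values of 1 list gene are not reported here. The alternatives are given in the closing section; windows free of soft-masked bases, letters read backwards, starts of the full annotation, blanked WGATAR and the 3 repressed genes added to that list were chosen after seeing the data.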

Additional observations from a re-analysis of the deposited data

How the results depend on the processing

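Of 361 values recomputed under 17 other settings, 321 changed neither in direction nor in passing the test or, where there was no test, stayed within 1.5 times (counts) or within the 95% interval (list shares), which for small lists is wide. The number of peaks ran from 367 (WGATAR within 50 bp) to 724 (WGATAR anywhere in the peak). With peaks over 5 kb from any start, the difference in repeated WGATAR from shared peaks turned to -2.33 points, and that in WGATAR within 25 bp was 5.25 points and no longer passed. With a limit of 10 bp the latter was 1.11 points, and with 50 bp 10.9 points. The difference in high peaks between 2 or more and 1 WGATAR passed outside all annotated genes (9.45 points) and with the list median as limit (14.8 points). In windows without soft-masked bases, 1 WGATAR form passed instead of 3, 1 motif passed against own flanks instead of 6 (with differences of 11.2 points for KLF and 5.26 for EBF, beside 12.7 and 2.81 in all windows), and TGATAA turned to -1.31 points. Genes near a peak numbered 157 within 10 kb and 769 within 50 kb. The share of the 9 activated genes fell from 33.3% to 11.1% at both distances. With WGATAR blanked, 4 motifs passed against peaks without WGATAR instead of 3. Causes of these changes were not tested, apart from the narrower limits themselves. No paired analysis was possible because replicates were merged in both lists, and for the same reason no replicate could be left out. Without replicates, and with a lowest pileup of 9 reads in either list, sites weaker than that were not detectable at this depth.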
